A study of Mus musculus with 8 samples.

Results

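NF-kB and TNF signalling components are the genes that carry a signal from the receptors of tumour necrosis factor (TNF), interleukin-1 and microbial products to the NF-kB transcription factors, together with the inhibitors that end that signal. They were examined in macrophages sorted from mouse pancreatic islets after a high-fat diet (HFD) or chow. The members were named by function in a list of 35 genes and were taken where the symbol column of the deposited count table equalled a listed name. This found 34 genes of the 48440 in the table. The remaining one, Acod1, stood in the table under an older symbol and was found by its gene identifier only. Every member is annotated as protein-coding on the GRCm38 assembly.

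The 8 libraries came from wild-type male C57BL/6J mice, 4 libraries from the HFD and 4 from chow. The HFD was 45% fat, with 20% protein, 35% carbohydrate and 19.67 kJ/g. Chow was 8% fat, with 21% protein, 71% carbohydrate and 10.88 kJ/g. Diets began at 8 weeks of age and lasted 8 weeks, so the mice were 16 weeks old, and each library held RNA from 2 mice. The cells were sorted as CD11b and F4/80 double-positive, and all 12 macrophage markers checked, Adgre1, Itgam and Csf1r among them, were above 0 in every library. HFD replicates are numbered 5 to 8 and chow replicates 1 to 4, and values below are listed in that order. Library totals ran from 4532503 to 5917920 counts in HFD and from 4288665 to 6391247 in chow. Levels are counts per 1000000 counts (CPM) after TMM scaling. Where a gene had 0 counts in a library, counting error alone leaves room for 0.468 to 0.708 CPM, depending on the library.

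In resting macrophages NF-kB dimers of the Rel family are held in the cytoplasm by IkB proteins. Receptor signals pass through MyD88, IRAK, TRAF and RIPK proteins to the kinase complex IKK, which phosphorylates IkB. A ubiquitin ligase whose substrate receptor is one of the beta-TrCP proteins, encoded by Fbxw11 and Btrc, then marks IkB for degradation. The freed dimers switch on inflammatory genes and also the genes of their own inhibitors, among them Nfkbia and Tnfaip3, which closes a negative feedback loop.

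The DNA upstream of the members was searched for the sequence that NF-kB binds; no binding was measured. The consensus kappaB site, the stretch of 10 bases that NF-kB dimers bind, was searched on both strands in RefSeq promoter windows of GRCm38.p6, each running from 250 bases before to 50 bases after an annotated start. Of the 35 listed genes 30 had a window, 42 windows in all. A match lay in 14 of the 42 windows (33.3%), against 2779 of all 32851 windows in the genome table (8.46%). Windows of the same gene can overlap, as for Irak1 and Nfkb2, so some matching bases were counted more than once. Counted by gene, 11 of the 30 members had a match (36.7%), against 2581 of 27025 genes (9.55%). The member windows were also richer in G and C, with a median of 59.8% against 52.7% over all windows, and the part of base composition in this difference was not tested. The 250 bases before an annotated start of 5 members are shown in lower case, 5′ to 3′ on the strand of the gene, with bases that belong to a match in capitals. Rel, Nfkbia, Tnip1 and Tnfaip3 are shown because they hold a match and encode an NF-kB subunit and 3 inhibitors, and Fbxw11 because it had the smallest p of the members and no match in its window. The windows are chr11:23770970-23771219 (minus strand) for Rel, chr12:55492648-55492897 (minus strand) for Nfkbia, chr11:54962941-54963190 (minus strand) for Tnip1, chr10:19015411-19015660 (minus strand) for Tnfaip3 and chr11:32642305-32642554 (plus strand) for Fbxw11.
Rel: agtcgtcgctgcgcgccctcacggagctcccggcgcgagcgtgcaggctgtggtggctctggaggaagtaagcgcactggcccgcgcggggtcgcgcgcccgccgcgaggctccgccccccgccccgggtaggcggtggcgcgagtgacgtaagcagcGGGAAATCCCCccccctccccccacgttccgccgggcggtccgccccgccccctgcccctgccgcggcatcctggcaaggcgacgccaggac
Nfkbia: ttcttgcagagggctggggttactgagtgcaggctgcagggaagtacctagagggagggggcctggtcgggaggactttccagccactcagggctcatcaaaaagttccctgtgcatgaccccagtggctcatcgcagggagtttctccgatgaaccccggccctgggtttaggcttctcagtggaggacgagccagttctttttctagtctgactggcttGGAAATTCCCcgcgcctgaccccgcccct
Tnip1: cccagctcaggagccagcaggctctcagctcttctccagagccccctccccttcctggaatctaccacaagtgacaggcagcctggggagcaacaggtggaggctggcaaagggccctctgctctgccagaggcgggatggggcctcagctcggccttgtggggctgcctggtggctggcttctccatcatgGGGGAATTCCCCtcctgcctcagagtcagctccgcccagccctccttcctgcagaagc
Tnfaip3: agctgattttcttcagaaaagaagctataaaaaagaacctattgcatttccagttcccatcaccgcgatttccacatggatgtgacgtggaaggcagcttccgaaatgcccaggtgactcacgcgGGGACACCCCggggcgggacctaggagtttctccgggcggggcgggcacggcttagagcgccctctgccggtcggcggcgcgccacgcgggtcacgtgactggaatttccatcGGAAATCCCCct
Fbxw11: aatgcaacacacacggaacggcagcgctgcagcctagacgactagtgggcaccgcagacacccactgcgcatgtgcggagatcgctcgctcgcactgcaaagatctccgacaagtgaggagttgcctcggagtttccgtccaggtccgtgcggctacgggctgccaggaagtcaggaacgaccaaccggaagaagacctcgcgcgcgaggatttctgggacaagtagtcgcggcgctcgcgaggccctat
In Rel the capitals span 11 bases starting 92 bases before the annotated start, where matches on both strands overlap at 2 positions. In Tnip1 they span 12 bases starting 58 bases before it, with matches overlapping at 3 positions. Nfkbia has 1 match, starting 29 bases before its start, and Tnfaip3 has matches starting 125 and 12 bases before the RefSeq start used. By GENCODE the Tnfaip3 gene spans 19000910 to 19015657, so nearly all of the window shown lies inside it. Of the Tnfaip3 windows the one with the most matches is shown, and the window at chr10:19011914-19012213 had no match. The Fbxw11 gene starts at 32642724 by GENCODE, beyond its RefSeq window, and the bases next to that start were not searched. A match shows only that these letters are present.

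The diets were compared to find transcripts that differ in islet macrophages after HFD feeding. No member passed the threshold. The filter on low counts kept 31 members, and 0 of these 31 had an adjusted p under 0.05 in edgeR's quasi-likelihood test, as did 0 of all 10129 genes tested (0.0%). At an unadjusted p under 0.05 there were 2 members, Fbxw11 and Nfkb1, against 542 of all genes (5.35%), a share near the background. DESeq2 called 1 member, Fbxw11, against 93 of 12161 genes (0.765%). Run with library quality weights, limma-voom called 0 members and 1 gene in all. Of the 31 members 12 had a positive log2 fold change, HFD over chow, and 19 a negative one, where 48.6% and 51.4% of all genes did so. The counts were 16 and 15 with limma-voom, and 15 and 16 both with a marker covariate and without chow replicate 1. The median over the 31 members was -0.14 and that over all tested genes -0.02. The plot of fold changes by role shows the members on both sides of 0 within most roles.

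**Figure D1:**
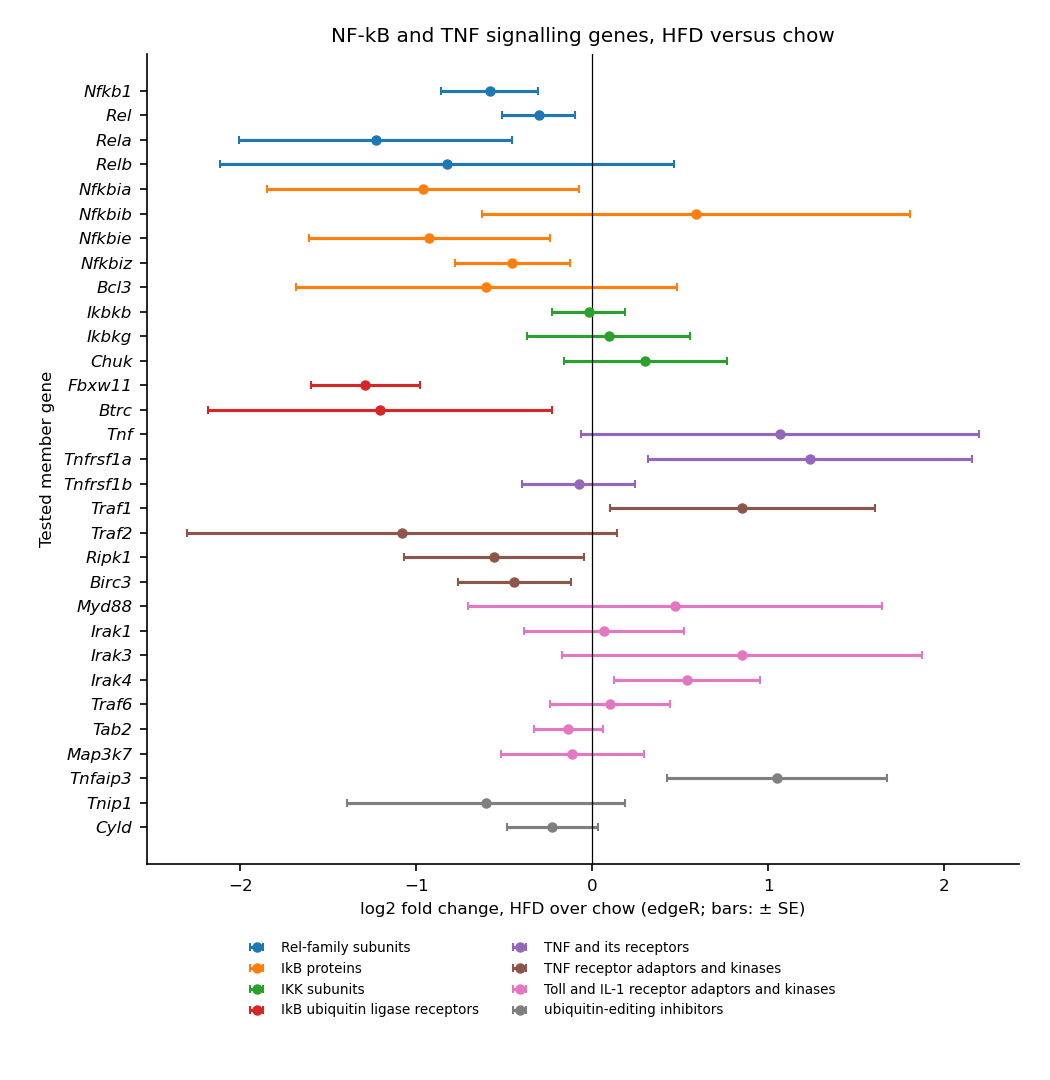
Log2 fold change, HFD over chow, for the 31 tested members (points; bars are ± SE from edgeR, 4 libraries per diet), grouped from top to bottom by role and coloured by it. Fbxw11, at -1.29, stands apart from 0 by more of its own error than any other member, and the widest bars belong to members below 20 CPM.

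Fbxw11, which encodes a substrate receptor of the IkB ubiquitin ligase, had the smallest p of the members. It lies on chromosome 11 (32642724 to 32746816, plus strand) and was at 95.1, 39.4, 79.0 and 80.1 CPM in HFD replicates 5 to 8, against 223, 182, 167 and 146 CPM in chow replicates 1 to 4. Every HFD library lay below every chow library. Fbxw11 was the only one of the 31 tested members whose diets did not overlap, and 3.39% of all tested genes had no overlap, 1.71% with HFD below chow. Its mean was 73.4 ± 23.8 CPM in HFD and 179.5 ± 32.8 CPM in chow (SD, n = 4 each). The log2 fold change was -1.29 (SE 0.31), with an unadjusted p of 0.000547, rank 8 of 10129 genes, and an adjusted p of 0.58 in edgeR's quasi-likelihood test. DESeq2 gave an adjusted p of 0.012 with a log2 fold change of -1.29. In bulk RNA, fewer cells of a type that carries a transcript and less of that transcript per cell cannot be told apart.

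Btrc, which encodes the paralogous receptor, was far lower per length of exon than Fbxw11. It averaged 0.811 ± 0.575 CPM per kb in HFD and 1.88 ± 3.04 in chow, where Fbxw11 averaged 17.0 ± 5.51 and 41.5 ± 7.57 CPM per kb (SD, n = 4 each). Its 4 HFD libraries were at 12.5, 27.8, 6.53 and 8.03 CPM, against 12.8, 3.28, 108 and 2.36 CPM in chow. A single library, chow replicate 3, carried nearly all of the chow level, and the diets overlapped. The exons of Btrc overlap those of Gm6807. The log2 fold change of -1.21 (SE 0.98, edgeR adjusted p = 0.99) was 1.16 without that library and 0.66 with limma-voom. Summed, the levels of Fbxw11 and Btrc were 108, 67.2, 85.6 and 88.2 CPM in HFD, against 236, 185, 276 and 148 CPM in chow. Fbxw11 made up most of the mean sum, 73.4 of 87.1 CPM in HFD and 179.5 of 211 CPM in chow. The sums therefore largely repeat the values of Fbxw11.

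Among the Rel-family subunits, all 4 that were tested had lower means in HFD, with log2 fold changes of -1.23 to -0.30, and none passed the threshold. With the stellate and fibroblast marker sum as a covariate Rel was at 0.005 and Relb at 0.48, and Relb was at 0.02 without chow replicate 1. Rel, which encodes c-Rel and is the most abundant of them, was at 326, 549, 395 and 595 CPM in HFD, against 661, 507, 671 and 464 CPM in chow. The HFD and chow libraries interleaved, and the log2 fold change was -0.30 (SE 0.21, edgeR adjusted p = 0.99). Nfkb1 (chromosome 3, 135584655 to 135691547, minus strand), which encodes a precursor that is processed to a DNA-binding subunit, was at 189, 114, 122 and 86.6 CPM in HFD, against 177, 169, 209.8 and 210.3 CPM in chow. HFD replicates 6, 7 and 8 lay below every chow library and HFD replicate 5 lay among them. Its log2 fold change was -0.58 (SE 0.28, unadjusted p = 0.048, edgeR adjusted p = 0.91), and the unadjusted p ran from 0.0084 without HFD replicate 5 to 0.14 without HFD replicate 8 over the 17 alternatives. Rela, the subunit with the main transactivation domain of the classical dimer, was at 17.3, 6.25, 9.48 and 15.9 CPM in HFD, against 45.6, 11.4, 50.6 and 7.32 CPM in chow. Chow replicates 1 and 3 lay above every other library, while chow replicates 2 and 4 lay among the HFD values, and its log2 fold change was -1.23 (SE 0.77, edgeR adjusted p = 0.99).

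The subunits of the non-canonical branch, Relb and Nfkb2, had the lowest mean CPM of the 5 subunit genes. Relb averaged 2.75 ± 1.49 CPM in HFD and 4.91 ± 5.07 CPM in chow (SD, n = 4 each). Nfkb2 failed the filter, with 3, 20, 20 and 0 counts in HFD, against 0, 2, 6 and 4 counts in chow, and its exons overlap those of Psd and AC114539.1. Per kb of exon, Rel made up 65.8%, 85.3%, 78.3% and 86.1% of the summed level of the 5 subunit genes in HFD, against 73.1%, 79.0%, 72.3% and 74.2% in chow. Rela made up 2.4% to 8.5% in HFD and 2.8% to 13.3% in chow. The order with Rel first therefore held in every library, while the order of Nfkb1 and Rela held in 7 of 8, chow replicate 1 having them at 12.1% and 12.3%.

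The genes of the IkB proteins were modest in level, and 4 of the 5 tested had lower means in HFD. Nfkbiz, an inducible nuclear IkB protein that assists transcription of a subset of NF-kB targets, was at 69.7, 107, 141 and 123 CPM in HFD, against 162, 179.7, 187 and 75.3 CPM in chow. Chow replicate 4 and HFD replicate 5 were the low libraries of their diets, and the groups overlapped (log2 fold change -0.45, SE 0.33, edgeR adjusted p = 0.99). Nfkbia, which encodes the classical cytoplasmic inhibitor and is a feedback target of NF-kB, was at 2.38, 12.7, 13.9 and 6.03 CPM in HFD, against 20.4, 25.6, 7.88 and 14.4 CPM in chow (log2 fold change -0.96, SE 0.89, edgeR adjusted p = 0.99). Nfkbie, another cytoplasmic inhibitor, was at 8.14, 18.6, 12.7 and 17.9 CPM in HFD, against 12.6, 29.8, 30.1 and 36.3 CPM in chow. For both, the lowest library was an HFD one, and the highest a chow one, with overlap between. For Bcl3, a nuclear co-regulator, the log2 fold change was -0.60 (SE 1.08), and for Nfkbib, a further cytoplasmic inhibitor, it was 0.59 (SE 1.22). The exons of Bcl3 overlap Gm16175 and those of Nfkbib overlap Sirt2 and Ccer2. Nfkbid failed the filter with 0 to 22 counts in HFD and 1 to 15 counts in chow.

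None of the 3 genes of the IKK complex passed the threshold, and their log2 fold changes were -0.02 to 0.30. Ikbkb, which encodes the kinase that drives classical signalling, was at 235, 278, 285 and 202 CPM in HFD, against 282, 231, 250.04 and 249.9 CPM in chow. The diets covered almost the same range, with a log2 fold change of -0.02 (SE 0.21, edgeR adjusted p = 0.99). Its direction was positive in 6 of the 17 alternatives, up to 0.07. Chuk, the partner kinase, averaged 67.2 ± 13.8 CPM in HFD and 54.5 ± 39.5 CPM in chow, and Ikbkg, the regulatory subunit, 48.1 ± 6.63 and 45.1 ± 23.3 CPM in the same order (SD, n = 4 each). Chow replicate 4 held the highest level of both, 113 CPM for Chuk and 79.5 CPM for Ikbkg, and no HFD library reached either. Per kb of exon, Ikbkb made up 38.2% to 43.1% of the 3 genes in HFD and 29.0% to 57.4% in chow. Ikbkg shares exonic sequence with G6pdx, and no use of strand in counting was stated in the sources used here, so its level is uncertain.

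**Figure D2:**
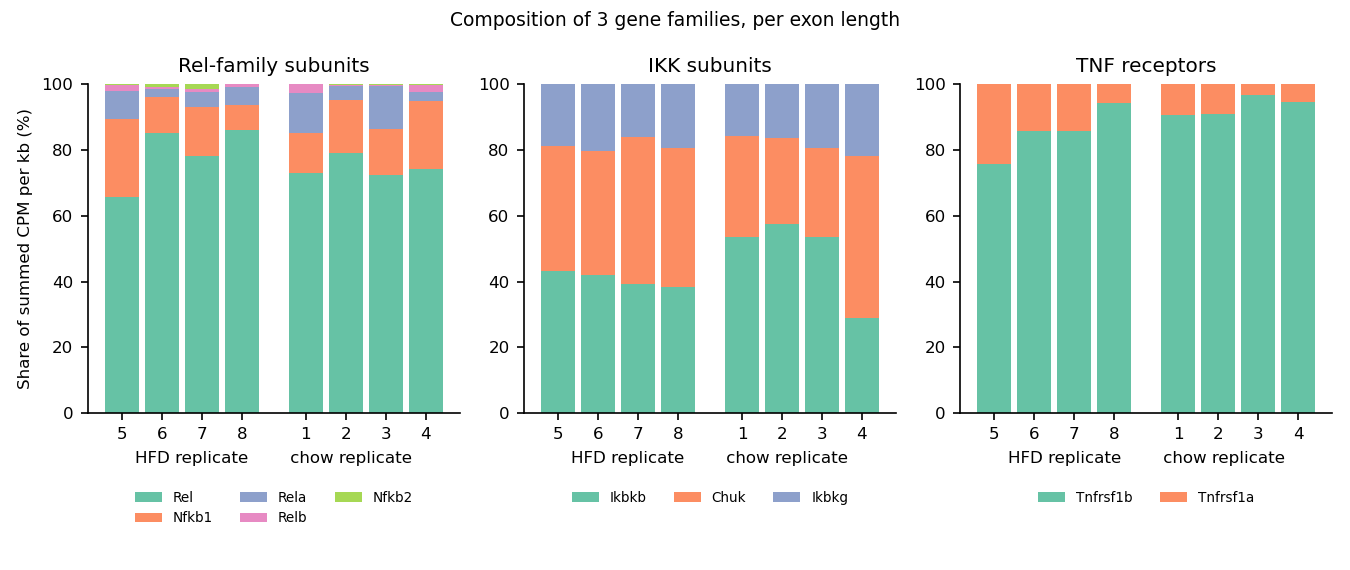
Share of each gene in the summed CPM per kb of its family (vertical axis, %) in each library, HFD replicates at the left of each panel and chow replicates at the right. Rel fills 65.8% to 86.1% of the Rel-family bars in every library, and Tnfrsf1b fills 75.8% to 96.8% of the TNF receptor bars.

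TNF itself and its receptors came out at very different levels. Tnf, encoding the cytokine, was at 2.38, 9.03, 8.22 and 12.7 CPM in HFD, against 4.94, 4.06, 1.87 and 4.48 CPM in chow. HFD replicates 6, 7 and 8 lay above every chow library and HFD replicate 5 below 3 of the 4, on 12 to 63 counts in HFD and 9 to 26 counts in chow (log2 fold change 1.07, SE 1.13, edgeR adjusted p = 0.99). Tnfrsf1a, which encodes the death-domain receptor found on most cells, was at 18.9, 17.4, 16.9 and 6.43 CPM in HFD, against 6.07, 9.68, 5.18 and 4.25 CPM in chow. Here HFD replicates 5, 6 and 7 lay above every chow library and HFD replicate 8 lay among them (log2 fold change 1.24, SE 0.92, edgeR adjusted p = 0.99). Tnfrsf1b, the second receptor, which is prominent on leukocytes and lacks a death domain, was at 87.2, 155, 152 and 155 CPM in HFD, against 87.8, 144, 233 and 114 CPM in chow. The diets overlapped (log2 fold change -0.08, SE 0.32, edgeR adjusted p = 0.99), and this value was 0.25 without chow replicate 3 and 0.09 without HFD replicate 5. Per kb of exon Tnfrsf1b exceeded Tnfrsf1a in every library, making up 75.8%, 85.8%, 85.9% and 94.3% of the pair in HFD, against 90.8%, 91.0%, 96.8% and 94.8% in chow.

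The adaptors and kinases that bind TNF receptors did not move as one. Birc3, a ubiquitin ligase of the receptor complex that is also an NF-kB target, was at 52.4, 102, 91.3 and 81.3 CPM in HFD, against 119.5, 119.7, 118 and 87.3 CPM in chow. Chow replicates 1, 2 and 3 lay within a narrow band above all HFD libraries, and chow replicate 4 lay among the HFD values (log2 fold change -0.44, SE 0.32, edgeR adjusted p = 0.99). Traf1, an inducible adaptor, averaged 26.6 ± 4.89 CPM in HFD and 14.7 ± 9.65 CPM in chow (SD, n = 4 each), with 1.80 CPM in chow replicate 1. Traf2, the constitutive adaptor, was at 8.34, 2.43, 1.90 and 2.01 CPM in HFD, against 22.2, 3.28, 3.32 and 2.36 CPM in chow, so 1 library in each diet was several-fold above the rest. Ripk1, the scaffold kinase, ran from 56.1 to 104 CPM in HFD and from 17.1 to 243 CPM in chow. Its counts were fractional in 6 of 8 libraries and its exons overlap those of Serpinb6a and Gm17084, so that level is uncertain as well.

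Genes that act below Toll-like and interleukin-1 receptors did not pass the threshold either. Tab2, which encodes a ubiquitin-binding adaptor of the kinase encoded by Map3k7, was at 268, 449, 339 and 319.7 CPM in HFD, against 413, 367, 344 and 388 CPM in chow. Its diets overlapped, with a log2 fold change of -0.14 (SE 0.20, edgeR adjusted p = 0.99). Traf6, the ubiquitin ligase of this branch, averaged 80.4 ± 5.81 CPM in HFD and 75.0 ± 16.3 CPM in chow, and Map3k7 63.2 ± 16.3 and 68.3 ± 27.6 CPM (SD, n = 4 each). Among the receptor-proximal kinases, Irak4 averaged 75.4 ± 31.4 CPM in HFD and 51.8 ± 14.1 CPM in chow, and Irak1 52.0 ± 20.6 and 49.7 ± 16.5 CPM. Irak3, a kinase-dead inhibitor of the pathway, ran from 6.11 to 25.9 CPM in HFD and from 0.937 to 11.4 CPM in chow. The exons of Irak3 overlap those of Tmbim4 and Gm47009, those of Irak4 overlap Twf1, and those of Irak1 overlap Mir5132 and Mir718. Myd88, the shared adaptor, was at 24.6, 17.9, 1.69 and 1.61 CPM in HFD, against 0.449, 4.84, 7.26 and 20.5 CPM in chow. The HFD libraries thus fell into a high and a low pair more than 10-fold apart. The chow libraries were graded, and the lowest chow value rests on 2 counts. The exons of Myd88 overlap those of Acaa1a. The 7 genes of this role had log2 fold changes of -0.14 to 0.85, 5 of them positive, and edgeR adjusted p-values of 0.99.

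None of the 3 inhibitors that act on ubiquitin chains passed the threshold. Tnfaip3, a ubiquitin-editing enzyme induced by NF-kB as a brake, was at 46.1, 30.6, 138 and 30.1 CPM in HFD, against 48.5, 30.9, 5.6 and 32.8 CPM in chow. HFD replicate 7 was high and chow replicate 3 low, while the other 6 libraries lay between 30.1 and 48.5 CPM. The log2 fold change of 1.05 (SE 0.62, edgeR adjusted p = 0.99) was 0.27 without HFD replicate 7. Its binding partner gene Tnip1 was at 7.15, 10.2, 13.9 and 28.1 CPM in HFD, against 27.9, 45.0, 7.26 and 10.1 CPM in chow (log2 fold change -0.60, SE 0.79). That value ran from -1.11 to -0.02 with a library left out and was 0.62 with the marker covariate. Cyld, a deubiquitinase that limits IKK activation, was at 122, 149, 137 and 160.5 CPM in HFD, against 124, 194, 147 and 199 CPM in chow, with overlap (log2 fold change -0.23, SE 0.26, edgeR adjusted p = 0.99). Of the members whose window with a match is shown above, Nfkbia, Tnip1 and Rel thus had negative values and Tnfaip3 a positive one. Of the 9 tested members with a kappaB match in any window, 2 had a positive and 7 a negative log2 fold change, with a median of -0.30. Of the 17 tested members with a window and no match, 10 were positive and 7 negative, with a median of 0.10; the difference between these lists was not tested. With the stellate and fibroblast marker sum as a covariate, described with the markers below, the 9 members split into 6 positive and 3 negative (median 0.05) and the 17 into 8 and 9 (median -0.01).

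**Figure D3:**
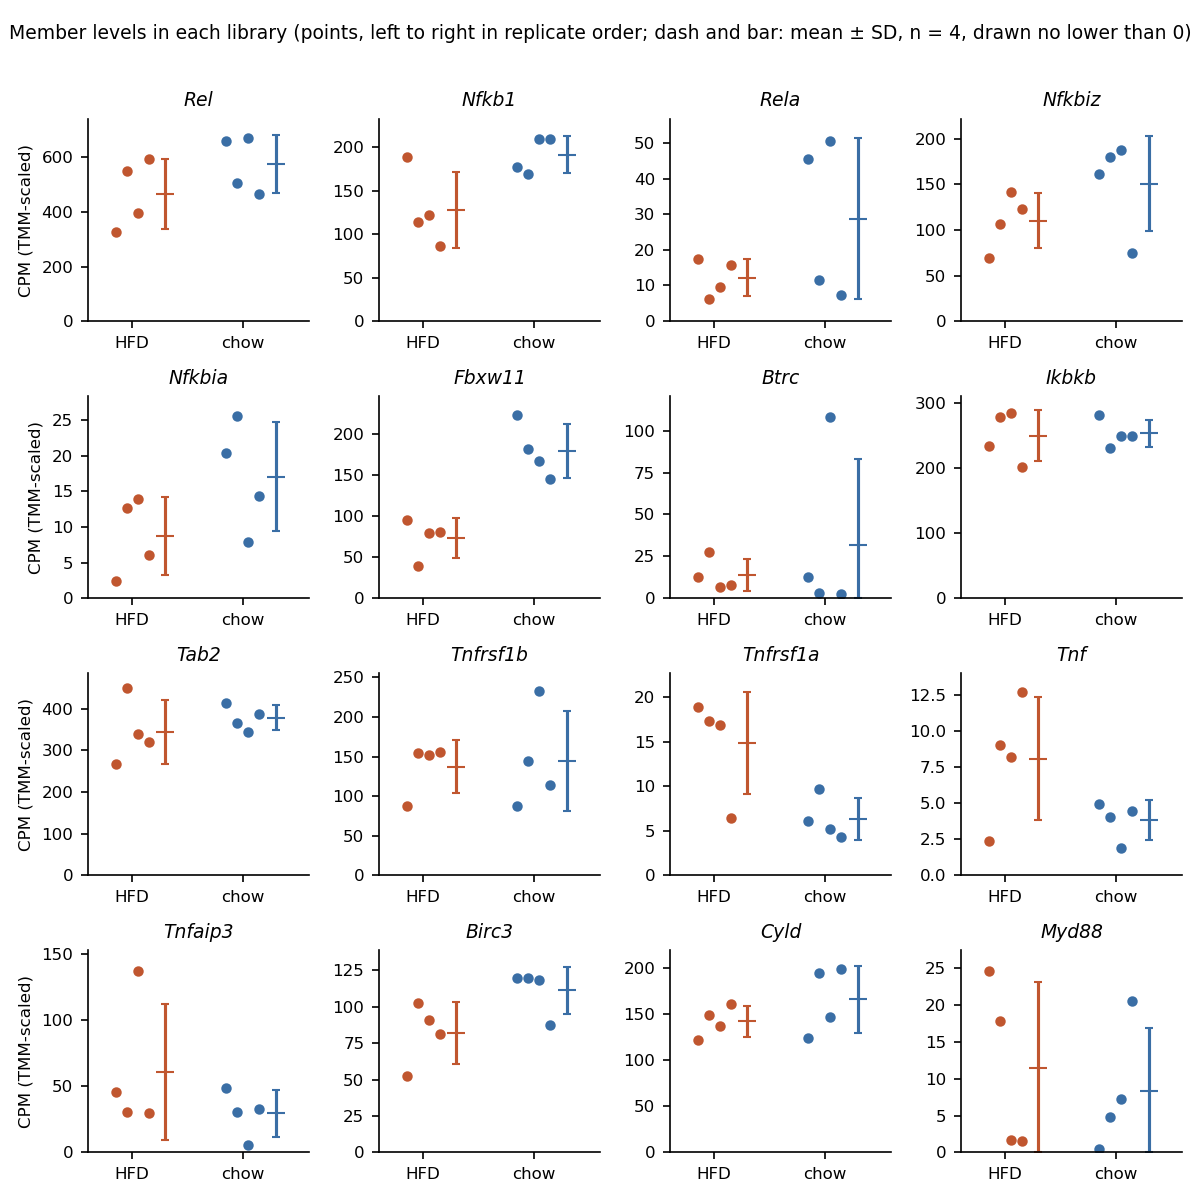
Level in each library (points; vertical axis CPM, TMM-scaled, from 0) of 16 members, HFD at the left and chow at the right of each panel, with mean ± SD (n = 4) beside the points and bars drawn no lower than 0. Fbxw11 is the single panel in which all HFD points, 39.4 to 95.1 CPM, lie below all chow points, 146 to 223 CPM, and in the Btrc and Tnfaip3 panels 1 library lies far above the rest.

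The inducible enzymes that mark a strongly activated macrophage were nearly absent. Ptgs2, which encodes the inducible cyclooxygenase, had 18 counts in HFD replicate 5, 2 in HFD replicate 7 and 0 in the other 6 libraries. Acod1, the itaconate-producing enzyme, had 22 counts in chow replicate 3 and 0 in the other 7. Neither passed the filter, so neither was tested.

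Error between libraries set what could be seen. The 8 members that averaged at least 100 CPM had a median coefficient of variation of 25.8% in HFD and 18.3% in chow, and SEs of 0.20 to 0.33 on the log2 scale. The 10 members below 20 CPM had medians of 62.5% and 79.4% in the same order, and SEs of 0.79 to 1.29. For Tnf, Nfkbia, Myd88 or Relb, differences of 2-fold were within about 1 SE and were not detectable at this depth and spread. Libraries were made by amplifying 500 pg of RNA, per the labels' protocols. HFD replicate 5 held the lowest value of 10 of the 31 tested members, where it held the lowest value of 14.6% of all tested genes, and the summed level of the 34 members found by symbol was also lowest there, 2057 CPM. In the other HFD libraries that sum was 2637, 2467 and 2498 CPM, and in chow it was 2845, 2832, 3003 and 2641 CPM.

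**Figure D4:**
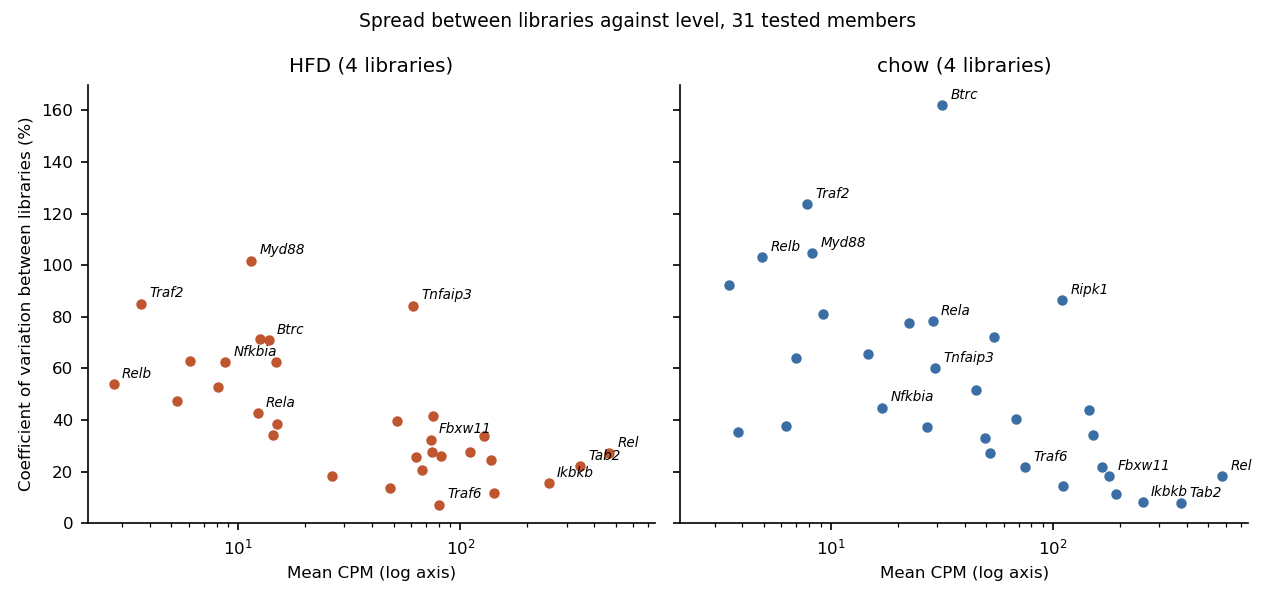
Coefficient of variation between the 4 libraries of a diet (vertical axis, %) against mean CPM (horizontal log axis) for the 31 tested members, HFD at the left and chow at the right. The lowest points are Traf6 in HFD (7.23%) and Tab2 in chow (7.84%), and the highest points are Myd88 in HFD (102%) and Btrc in chow (162%).

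The rest of the pathway was read from a list of 60 other NF-kB components, of which 51 were tested. Of these 22 had a positive and 29 a negative log2 fold change, with a median of -0.06, and 0 passed the threshold, with 0 at an unadjusted p under 0.05. Among those with the smallest p were Sharpin and Rbck1, subunits of the ligase complex that builds linear ubiquitin chains, and Tbk1, an IKK-related kinase. Sharpin averaged 19.2 ± 4.33 CPM in HFD and 44.3 ± 27.7 CPM in chow, and Rbck1 35.8 ± 16.1 and 63.7 ± 21.4 CPM (SD, n = 4 each; edgeR adjusted p = 0.94 and 0.99). Tbk1 averaged 93.7 ± 33.5 CPM in HFD and 147 ± 43.5 CPM in chow (SD, n = 4 each; edgeR adjusted p = 0.94). For all 3 the diets overlapped.

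Transcripts that NF-kB is known to induce were read from a list of 45 genes beyond the members, of which 26 were tested. Positive log2 fold changes numbered 11 and negative ones 15, with a median of -0.34. None passed the threshold, and 3 of 26 had an unadjusted p under 0.05, where 5.35% of all tested genes did. The diets did not overlap for 2 of 26, Il1b and Bcl2a1b, where 3.39% of all tested genes had no overlap. Il1b, encoding interleukin-1 beta, was at 54.6, 84.9, 31.2 and 121 CPM in HFD, against 248.9, 170.5, 216 and 193 CPM in chow. Like Fbxw11 it had no overlap between the diets, with a log2 fold change of -1.51 (SE 0.35, edgeR adjusted p = 0.58; DESeq2 adjusted p = 0.019). The chemokine gene Cxcl16 averaged 416 ± 71.1 CPM in HFD and 611 ± 105 CPM in chow (log2 fold change -0.55, SE 0.18, edgeR adjusted p = 0.75). Il1rn, the interleukin-1 receptor antagonist, averaged 8.07 ± 9.49 and 31.5 ± 23.4 CPM in the same order (edgeR adjusted p = 0.93), and Cxcl2, a neutrophil chemokine, 10.3 ± 11.2 and 2.27 ± 2.38 CPM (edgeR adjusted p = 0.99). Bcl2a1b, named after its values were seen, was the other gene of this list without overlap, at 55.2 to 117 CPM in HFD and 127 to 145 CPM in chow; its near-identical family members make its counts uncertain. Summed over the list, levels were 1019, 1035, 1198 and 1207 CPM in HFD, against 1400.2, 1608, 1588 and 1400.2 CPM in chow. Without Cxcl16 and Il1b the sums were 606, 568, 760.2 and 568 CPM in HFD, against 565, 798, 637 and 723 CPM in chow, and overlapped.

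Immediate-early and dissociation genes, which respond to tissue digestion and share triggers with the pathway, were checked beside it. Of 26 listed genes 17 were tested, 10 positive and 7 negative, with a median of 0.01, 0 past the threshold and 2 at an unadjusted p under 0.05, against 5.35% of all tested genes. Their summed level was 1858, 1811, 2433 and 2380.0 CPM in HFD, against 1971, 2047, 2258.9 and 2258.9 CPM in chow. HFD replicate 7, which had the high Tnfaip3 level, had the highest sum. HFD replicate 8, with a sum of 2380.0 CPM, had Tnfaip3 at 30.1 CPM, and chow replicate 3, with 2258.9 CPM, at 5.6 CPM. A relation between the sum and Tnfaip3 was not tested. Egr1, an early transcription factor, averaged 40.1 ± 14.3 CPM in HFD and 12.6 ± 9.98 CPM in chow (edgeR adjusted p = 0.89). Among heat-shock genes, Dnajb1 averaged 65.5 ± 20.9 CPM in HFD and 121 ± 56.4 CPM in chow (edgeR adjusted p = 0.89), and Hspa1a 40.3 ± 32.3 and 16.0 ± 13.8 CPM (0.99). Zfp36, an mRNA-decay factor for Tnf, averaged 154 ± 78.7 CPM in HFD and 207 ± 78.8 CPM in chow (0.99).

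Markers of other cell types were summed in each library. Stellate cell and fibroblast markers summed to 463, 303, 278 and 106 CPM in HFD, against 24.0, 81.5, 133 and 88.7 CPM in chow (exact permutation test, two-sided, p = 0.057, adjusted p = 0.36 over the 10 lists), with Rgs5 the highest and 1 of 12 markers above 0 in every library. With that sum as a covariate, Fbxw11 had a log2 fold change of -1.08 (unadjusted p = 0.031, edgeR adjusted p = 0.96) and Nfkb1 one of -1.10. Acinar markers were at 1767 CPM in HFD replicate 7 and 38.2 to 113 CPM in the other HFD libraries, against 1677 and 3576 CPM in chow replicates 3 and 4 and 0.225 and 2.34 CPM in chow replicates 1 and 2. Chow replicate 3 also had the high Btrc level and the Acod1 counts. In HFD replicate 7 and chow replicate 4 Btrc was at 6.53 and 2.36 CPM and Acod1 had no counts. A relation of either gene to the acinar sum was not tested. Dendritic cell markers, with Siglech the highest, summed to 142 to 269 CPM in HFD and 254 to 306 CPM in chow. Macrophage markers summed to 5910 to 6989 CPM in HFD and 5985 to 7853 CPM in chow. T and NK cell markers were at or near 0, with 7 of 10 at 0 throughout. Cd79a, Pax5 and Igkc were at 0 in every library. The B cell sum of 208 to 300 CPM in HFD and 250 to 446 CPM in chow came mostly from Ighm. Monocyte and neutrophil markers summed to 773 to 1183 CPM in HFD and 725 to 1121 CPM in chow, with Ccr2 the highest. Of these 10 markers 2 were above 0 in every library, and 6, among them S100a8, S100a9, Ly6g and Cxcr2, were at 0 throughout. Endocrine markers summed to 1038 to 1862 CPM in HFD and 491 to 1870.4 CPM in chow. Ductal markers summed to 14.9, 12.0, 17.9 and 1.00 CPM in HFD, against 0, 3.90, 2.07 and 2.12 CPM in chow (exact permutation test, two-sided, p = 0.11, adjusted p = 0.36). Spp1 was the highest of these 7 markers, 0 of 7 were above 0 in every library, and Sox9 and Cftr were at 0 throughout.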

How the data were processed

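RNA sequencing of 8 libraries was used, 4 from HFD and 4 from chow. The submitters' processing notes name FastQC, Trim Galore, STAR and the build GRCm38, without roles or versions. The sources used here do not give the counting program, its strand setting or the annotation release. The deposited values are expected counts per gene, not scaled between libraries; 939 to 1115 values per library were fractional. They were rounded to whole numbers. Symbols, coordinates and exon lengths came from GENCODE M21 by identifier (48058 of 48440 matched), and promoter windows from RefSeq. Exon length is the union of all annotated exons of a gene, and levels and shares per kb depend on it. It was 19078 bases for Ikbkb, 5087 for Chuk, 8110 for Ikbkg, 16908 for Btrc and 4327 for Fbxw11.

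Genes were tested with edgeR (version 4.0.16; filterByExpr, TMM, robust quasi-likelihood fit with diet as the only term) in R (version 4.3.3), two-sided, with Benjamini-Hochberg adjustment over all tested genes at 0.05. Steps were tested on simulated data. Alternatives used DESeq2 (version 1.42.0), limma-voom with library quality weights (limma version 3.58.1), other scalings and filters, each library left out, and a marker covariate. All 28 pairs of libraries differed beyond sampling noise, with chi-square at least 36.3 times its degrees of freedom. Marker sums used log2(CPM + 1) and an exact permutation test over 70 arrangements, whose smallest p is 0.0286. Intervals and floors, taken at 3 counts, cover counting error only.

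The members and lists were chosen with earlier results of these data known. Members described in full had an unadjusted p under 0.05, no overlap between the diets, or the highest level of their role, by rule. Values of other members were added after they were seen. Up to 4 genes with the smallest p were named per further list. A gene that this rule names in a further list is not reported here.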

Additional observations from a re-analysis of the deposited data

Results flagged for a closer look

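Within each diet, the highest and the lowest library were compared with the rest of their 4. The rule was Dixon's ratio of gap to range at the 95% level, which chance meets in about 1 of 20 groups of normally distributed values. In all, 88 groups were examined and 13 values stood apart. A group with counts in a single library, such as Acod1 in chow, meets the rule whatever the count. The number that stood apart can therefore not be compared with 1 of 20. Btrc was at 108 CPM in chow replicate 3 against 2.36 to 12.8 CPM in the other chow libraries. Traf2 was at 8.34 CPM in HFD replicate 5 against 1.90 to 2.43 CPM in the other HFD libraries, and at 22.2 CPM in chow replicate 1 against 2.36 to 3.32 CPM in the other chow libraries. Tnfaip3 was at 138 CPM in HFD replicate 7 against 30.1 to 46.1 CPM in the other HFD libraries. Tnfrsf1b was at 87.2 CPM in HFD replicate 5 against 152 to 155 CPM in the others, and Relb was at 4.97 CPM there against 1.74 to 2.21 CPM. Tnfrsf1a was at 6.43 CPM in HFD replicate 8 against 16.9 to 18.9 CPM in the other HFD libraries. Birc3 was at 87.3 CPM in chow replicate 4 against 118 to 119.7 CPM in the other chow libraries. Ptgs2 was at 3.58 CPM in HFD replicate 5 and at most 0.422 CPM in the other HFD libraries, and Acod1 was at 4.56 CPM in chow replicate 3 and 0 in the other chow libraries. Among marker sums, acinar transcripts were at 1767 CPM in HFD replicate 7 against 38.2 to 113 CPM in the other HFD libraries. T and NK cell markers were at 0.347 CPM in HFD replicate 6 and 1.72 CPM in chow replicate 2 and at 0 in the other libraries.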

How the results depend on the processing

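No paired analysis was made, because the labels used here give no pairing of HFD with chow libraries. edgeR called 0 of 10129 genes; the count was 45 with no filter, 93 with DESeq2, 1 with limma-voom and 0 to 11 with a library left out (11 without HFD replicate 8). Members called numbered 0 in the main test and 1, Fbxw11, with no filter (adjusted p = 0.033) and with DESeq2; no other setting called a member. Fbxw11 kept its direction in all 17 alternatives, from -1.44 to -1.08. Among NF-kB-inducible transcripts 1 gene, Il1b, was called with no filter and with DESeq2, and 1 immediate-early gene, Egr2, with DESeq2. The median log2 fold change of the members, -0.14, was -0.0702 with library totals, 0.0144 with limma-voom, -0.0125 with the stellate and fibroblast covariate, and -0.26 to -0.00526 with a library left out. Of 31 members 17 kept their direction throughout. The sign turned with the covariate for Rel (0.00461), Relb (0.48), Bcl3 (0.83), Ikbkg (-0.14), Traf2 (0.58), Myd88 (-3.21), Traf6 (-0.20), Map3k7 (0.37) and Tnip1 (0.62), with limma-voom for Ikbkb (0.0144), Btrc (0.66), Tnfrsf1b (0.0228) and Map3k7 (0.0166), and for Ikbkb with upper quartile scaling (0.0117) and library totals (0.0577). With a library left out, the log2 fold changes ran from -1.26 to 0.0240 for Relb, -1.12 to 0.0336 for Bcl3, -0.0894 to 0.0693 for Ikbkb, -0.0820 to 0.51 for Ikbkg, -1.83 to 1.16 for Btrc, -0.26 to 0.25 for Tnfrsf1b, -1.86 to 0.29 for Traf2, -0.92 to 0.18 for Ripk1, -0.22 to 1.44 for Myd88, -0.22 to 0.28 for Irak1 and -0.29 to 0.17 for Map3k7. Differences in log2 marker sums, HFD minus chow, ran with a library left out from -0.89 to 2.95 for acinar, -0.00483 to 0.64 for endocrine, -0.28 to 0.67 for endothelial, -0.37 to 0.11 for T and NK and -0.0126 to 0.24 for monocyte and neutrophil markers. The cause of these turns was not tested. Members below 20 CPM had SEs of at least 0.79.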
